A study of Mus musculus with 9 samples.

Results

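Replication-dependent histone genes were examined in wild-type E14 mouse ES cells, a pluripotent line, that were kept unstarved, starved of Cys or starved of Thr, with 3 libraries of polyadenylated RNA for each group. The starvation of Thr and Cys lasted 3 h in the study's account, while the protocol in the sample labels describes only Arg and Leu media, so the medium of these samples is not stated there. All 9 libraries share the wild-type genotype and the cell line, and nothing in the labels says that replicates came from separate cultures, so p-values measure the spread between these samples, which may be technical. The members are the protein-coding rows of the count table whose GENCODE M21 symbol begins with Hist1h, Hist2h, Hist3h or Hist4h and whose counts sum to at least 90 over the 9 libraries. Of 67 such genes in the annotation, 58 were in the table and 57 passed, out of 20143 genes with at least 1 count. The 9 others (Hist1h1t, Hist1h2aa, Hist2h2ab, Hist2h2ac, Hist2h2aa1, Hist2h2aa2, Hist2h3c1, Hist2h3b and Hist2h2bb) were not analysed here. Just outside the limit was Hist1h4b with 57 counts, and just inside were Hist4h4 with 90 and Hist1h2ba with 92. The limit sums all 3 groups, and both of the latter would fall under it on the 6 libraries without Thr starvation, scaled to 9.

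Replication-dependent histones package newly copied DNA, and their genes are switched on together as cells enter S phase. H2A, H2B, H3 and H4 form the core of the nucleosome, and the linker histone H1 binds the DNA between nucleosomes. Most of their RNA ends in a conserved stem-loop, bound by SLBP, in place of a poly(A) tail, so libraries made from poly(A) RNA hold only the polyadenylated portion of it, and the levels below say nothing of the non-polyadenylated RNA.

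The members comprise 5 genes of H1, 13 of H2A, 17 of H2B, 10 of H3 and 12 of H4. The Hist1 cluster on chromosome 13 holds 51 of them, Hist2 holds 3, Hist3 holds 2 and Hist4 holds 1. A stem-loop was searched as a pair of complementary arms around a loop of 4 bases in the annotated transcripts, and it was found in 38 of the 57 members (66.7%) against 11 of 21884 other protein-coding genes (0.0503%). These sequences are shown because they are the element that normally replaces the poly(A) tail, with the pairing arms in capitals.
Form in 23 members of H1, H2A, H2B and H3: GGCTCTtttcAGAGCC
Form in 5 members of H2B and H3: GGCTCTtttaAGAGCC
Form in 7 members of H4: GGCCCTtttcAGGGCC
Form in 2 members of H4: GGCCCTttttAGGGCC
Form in Hist1h4j: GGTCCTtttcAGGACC
The arms therefore differed between H4, where a stem-loop was found in 10 of 12 genes, and the other classes. In Hist1h2ap the stem-loop lies at chr13:21833029-21833044 on the minus strand of GRCm38, 3 bases before the annotated transcript end. The annotated transcript ended within 60 bases of the stem-loop in 17 members and ran further in 21. The other 19 had no match in the annotated sequence, and a stem-loop past its end would have been missed. Some of these transcripts are short, as 312 bases in Hist1h4k and 381 in Hist1h2bl. A poly(A) signal lay in the last 40 bases of the transcript in 15 members.

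Reads shared between near-identical genes limit what a row can say. In windows of 43 bases, the length of the reads, 55 of the 57 members shared sequence with another member, and the share of windows found in no other annotated transcript had a median of 20.8% in H2A (5.88% to 85.1%) and of 97.4% in H1. Hist1h2bq and Hist1h2br share 1968 windows, and their counts differed by at most 9 in any library, as 85 against 87 in the first unstarved and 173 against 176 in the third Thr-starved library. Across the 9 libraries, the log2 ratio of each of the other 11 H2A rows of the Hist1 cluster to Hist1h2ap ranged over only 0.06 to 0.26. Rows that share windows can hold the same reads, so they cannot be taken as independent measurements. Whether the narrow ratios come from shared reads was not tested. Hist1h2ac, with 85.1% of its windows in no other transcript, had a range of 0.24. It also shares 290 windows with Hist1h2ag, and the position of its reads is unknown from counts. Counts were also summed by class before testing. A read counted at several rows would enter such a sum several times, so the sums do not remove this limit. All 13 H2A members also overlap an annotated gene on the opposite strand, and Hist1h2ac overlaps Gm24991 on its own strand. Those genes were not analysed here, and since the sources used here do not state whether counting used strand, reads of such partners cannot be told apart from those of the H2A genes.

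The summed level of all members, in CPM, the counts scaled to library totals after TMM normalization, was 687, 687 and 679 in the unstarved libraries, 820, 824 and 805 in the Cys-starved and 2246, 2184 and 2272 in the Thr-starved libraries. The groups did not overlap, and the means were 684 ± 4.55, 816 ± 9.90 and 2234 ± 45.4 (SD, n = 3). H2A made up 95.8% of the members' counts, against 1.89% for H2B, 1.31% for H3, 0.568% for H4 and 0.399% for H1. Without H2A, the summed level was 40.5 ± 1.31 in unstarved, 39.8 ± 0.815 in Cys-starved and 74.5 ± 1.78 CPM in Thr-starved cells (SD, n = 3). In bulk RNA, more RNA per cell and more cells that express the genes cannot be told apart.

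All classes were higher after Thr starvation. The summed counts of H2A rose 3.36-fold (log2 fold change 1.75 ± 0.02 SE, adjusted p = 2.41e-25, edgeR quasi-likelihood test). H1 rose 2.31-fold, H4 2.30-fold, H3 1.81-fold and H2B 1.66-fold, with log2 fold changes of 1.21 ± 0.10, 1.20 ± 0.11, 0.86 ± 0.07 and 0.73 ± 0.06 (SE). After Cys starvation only the summed counts of H2A passed the test, at 1.21-fold (log2 fold change 0.27 ± 0.02 SE, adjusted p = 4.8e-11). The log2 fold changes of the other classes were 0.02 ± 0.11 for H1, 0.04 ± 0.06 for H2B, −0.15 ± 0.07 for H3 and −0.00 ± 0.12 for H4 (SE). Directly compared, Thr-starved cells were higher than Cys-starved cells in every class, from 1.62-fold in H2B to 2.79-fold in H2A.

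**Figure D1:**
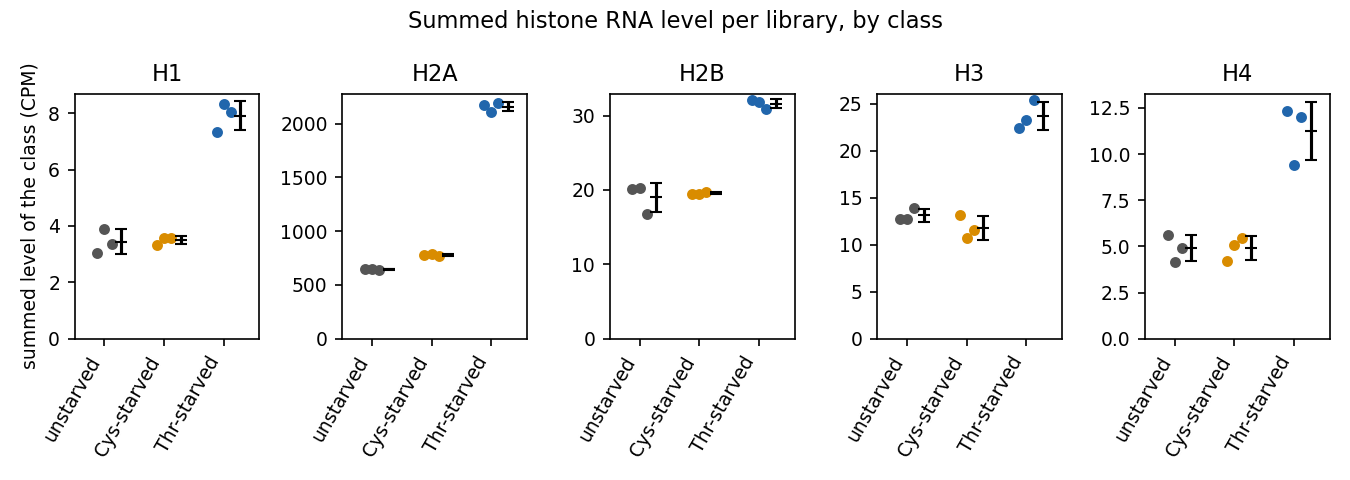
Summed level of each histone class in CPM (y axis, from 0, scaled to each class) in the 3 unstarved, 3 Cys-starved and 3 Thr-starved libraries (points), with mean and SD (bars). The Thr-starved libraries lie above the other groups in every class, and H2A reaches 2160 CPM against 31.6 CPM for H2B.

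Of the 57 members, 49 (86.0%) were called higher and 0 lower after Thr starvation at an adjusted p of 0.05 or less, against 63% of all tested genes called in either direction, 31.1% higher and 31.9% lower. The median log2 fold change of the members was 1.10, against −0.02 over all genes. The libraries of the 2 groups did not overlap in 50 members (87.7%), against 66.5% of all genes. By class, 5 of 5 H1, 13 of 13 H2A, 11 of 17 H2B, 10 of 10 H3 and 10 of 12 H4 genes were called. The 49 and the 10 H4 genes include Hist4h4, which passed the 90-count limit only through its Thr-starved counts. Its call is therefore no support. The 8 members not called were Hist1h2ba, Hist1h2bb, Hist1h2be, Hist1h2bf, Hist1h2bh, Hist1h2bp, Hist1h4f and Hist2h4, with log2 fold changes of 0.22 to 0.68. In the 27 members with at least 50% of their windows in no other transcript, 20 were called higher (74.1%) and the median was 1.14. In the other 30 members, 29 were called higher (96.7%) and the median was 1.06. The 27 hold only 3 of the H2A and 1 of the H3 genes, so the sets differ in class and the medians are not a like comparison.

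With Cys starvation, 12 members (21.1%) were called higher and 0 lower, against 36.3% of all genes called in either direction, 17.5% higher and 18.8% lower. The 12 are the H2A genes of the Hist1 cluster, whose rows can share reads, at log2 fold changes of 0.23 to 0.35. None of the 44 other-class members was called. The median log2 fold change was 0.08 over all members and −0.04 without H2A, against 0.01 over all genes. The libraries of the 2 groups did not overlap in 16 members (28.1%), against 46.4% of all genes, and the members lay above in 13 and below in 3. With the deposited size factors, the calls over all genes split into 2787 higher and 4786 lower in place of 3523 and 3790, and 12 members were called higher. Between Thr-starved and Cys-starved cells, 49 members (86.0%) were called higher and 0 lower, against 62% of all genes called in either direction, 30.4% higher and 31.6% lower, with a median of 1.13 against −0.02, and the libraries did not overlap in 51 members (89.5%) against 65.8% of all genes. The 8 members not called in the direct comparison were Hist1h2ba, Hist1h2bb, Hist1h2bh, Hist1h2bn, Hist1h2bp, Hist1h4f, Hist2h4 and Hist4h4. The comparisons with Thr and with Cys share the unstarved libraries.

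**Figure D2:**
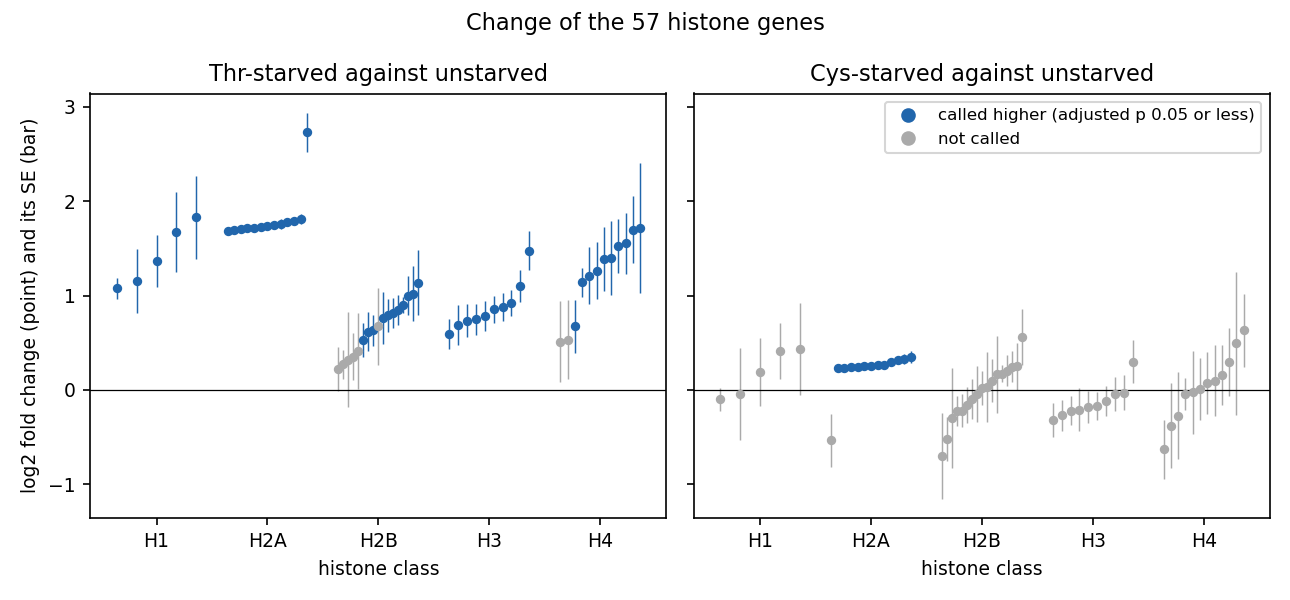
Log2 fold change (y axis, with its SE as bars) of the 57 members by class (x axis), after Thr starvation (left) and Cys starvation (right), in blue where called higher and grey where not called. The 12 H2A genes of the Hist1 cluster lie together, from 1.69 to 1.81 with Thr and from 0.23 to 0.35 with Cys.

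Hist1h2ap, a core H2A gene at chr13:21833026-21833507 (minus strand, GRCm38), had the most counts. Its level was 129, 124 and 121 CPM in unstarved, 154, 156 and 155 in Cys-starved and 442, 419 and 437 CPM in Thr-starved libraries. The groups did not overlap, and the gene rose 3.47-fold with Thr (log2 fold change 1.80 ± 0.03 SE, adjusted p = 3.59e-23) and by 0.31 ± 0.03 on the log2 scale with Cys (adjusted p = 3.65e-09). Hist1h2ao, Hist1h2ah, Hist1h2ad and Hist1h2ag followed by counts, with means of 107, 70.9, 62.5 and 55.1 CPM in unstarved and 369, 230, 204 and 185 CPM in Thr-starved cells. Hist1h2ac, of which 85.1% of windows occur in no other transcript, moved as these did, with 11.9, 12.03 and 12.6 CPM in unstarved, 16.2, 15.8 and 14.5 in Cys-starved and 45.1, 44.3 and 39.2 CPM in Thr-starved libraries. Its log2 fold change was 1.81 ± 0.06 with Thr and 0.35 ± 0.06 with Cys (SE), while the position of its reads within the transcript is unknown from counts.

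Hist3h2a, an H2A gene of the Hist3 cluster at chr11:58954685-58956830, was the member with the largest rise with Thr and did not move with the other H2A genes. Its level was 0.480, 0.529 and 0.334 CPM in unstarved, 0.333, 0.201 and 0.402 in Cys-starved and 3.00, 2.98 and 3.04 CPM in Thr-starved libraries, so that all Thr-starved libraries were high. The rise with Thr was 6.64-fold, or 2.73 ± 0.21 as a log2 value (adjusted p = 7.09e-11), and with Cys the difference was −0.54 ± 0.28 (SE, adjusted p = 0.148). It overlaps the same-strand gene Trim17, which was not analysed here, and the setting used for overlapping genes is not given in the sources used here. Its neighbour Hist3h2ba, an H2B gene, had 0.959, 0.728 and 1.08 CPM in unstarved, 0.762, 0.711 and 0.436 in Cys-starved and 1.88, 1.55 and 2.04 CPM in Thr-starved libraries. It rose by 1.00 ± 0.21 with Thr and was at −0.52 ± 0.24 with Cys (SE, adjusted p = 0.0921), a difference that ranged from −0.67 without the second unstarved library (adjusted p = 0.0456) to −0.32 without the third Cys-starved library, and that passed the test in the first of these fits alone among those that leave out 1 library.

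The leading genes of the other classes were far lower per length. In unstarved cells, Hist1h2ap was at 259 CPM per kb of exon. Of its windows, 93.2% also occur in Hist1h2ao, so this value can include reads of other H2A genes. The values were 4.07 for Hist1h2bc, 3.60 for Hist1h3g, 2.10 for Hist1h4i and 1.58 for Hist1h1c. Hist1h2bc, a core H2B gene, had 4.32, 4.75 and 5.06 CPM in unstarved, 5.51, 4.91 and 5.48 in Cys-starved and 8.63, 8.79 and 8.85 CPM in Thr-starved libraries. Only the Thr-starved libraries stood clear of the others, with a rise of 1.86-fold (log2 fold change 0.90 ± 0.08 SE, adjusted p = 2.41e-09). Hist1h1c, a linker histone, had 2.18, 2.71 and 2.49 CPM in unstarved, 2.19, 2.49 and 2.21 in Cys-starved and 4.90, 5.62 and 5.08 CPM in Thr-starved libraries, a rise of 2.11-fold with Thr (adjusted p = 1.71e-08). Hist1h3g, a core H3 gene, had 2.03, 1.72 and 1.97 CPM in unstarved, 1.71, 1.48 and 1.89 in Cys-starved and 3.08, 3.82 and 3.89 CPM in Thr-starved libraries, a rise of 1.89-fold. Hist1h4i, a core H4 gene, had 1.69, 1.46 and 1.43 CPM in unstarved, 1.32, 1.64 and 1.48 in Cys-starved and 3.94, 2.68 and 3.46 CPM in Thr-starved libraries, a rise of 2.21-fold. In all 4 of these genes the Cys-starved libraries overlapped the unstarved ones.

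In all 5 H1 genes the Thr-starved libraries lay above the unstarved ones. Over all genes, the libraries of these groups did not overlap, in either direction, in 66.5%. Of the H1 genes, 4 stayed at or under 0.445 CPM in every unstarved library. Hist1h1d had 0.248, 0.430 and 0.445 CPM in unstarved, 0.444, 0.510 and 0.537 in Cys-starved and 0.857, 0.839 and 1.16 CPM in Thr-starved libraries. Hist1h1b had 0.0992, 0.265 and 0.148 CPM in unstarved, 0.190, 0.0773 and 0.235 in Cys-starved and 0.531, 0.629 and 0.504 CPM in Thr-starved libraries. In both linker genes the Thr-starved libraries were high and the other groups overlapped, with log2 fold changes of 1.36 ± 0.28 and 1.67 ± 0.42 with Thr (SE), and 97.4% and 99.3% of their windows occur in no other transcript. Hist1h1e, at 1.83 ± 0.44, overlaps Hist1h2be on the same strand, and Hist1h2be was at 0.27 ± 0.16 (SE, not called).

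The 10 H3 genes had log2 fold changes of 0.60 to 1.48 with Thr. In each the Thr-starved libraries lay above the unstarved ones, against 66.5% of all genes without overlap in either direction. At the top was Hist2h3c2 of the Hist2 cluster, with 0.662, 0.447 and 0.816 CPM in unstarved, 0.746, 0.773 and 0.838 in Cys-starved and 1.63, 1.74 and 1.94 CPM in Thr-starved libraries. At the bottom was Hist1h3d, with 1.47, 1.46 and 1.52 CPM in unstarved, 1.51, 1.05 and 1.12 in Cys-starved and 2.35, 2.08 and 2.29 CPM in Thr-starved libraries. Of the H3 genes, Hist1h3d has the largest share of windows found in no other transcript (74.2%), while Hist1h3h and Hist1h3i have 5.96% and 10.3% and were at 0.85 ± 0.15 and 0.75 ± 0.16 (SE).

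Among the H4 genes, the 10 called with Thr had log2 fold changes of 0.67 to 1.72. The upper end is Hist4h4, which passed the 90-count limit only through its Thr-starved counts, so its call is no support. Hist1h4h had 0.198, 0.132 and 0.371 CPM in unstarved, 0.254, 0.371 and 0.453 in Cys-starved and 0.755, 0.629 and 0.859 CPM in Thr-starved libraries (1.70 ± 0.36 with Thr, SE). Hist1h4d, with 88.0% of windows in no other transcript, had 0.562, 0.430 and 0.371 CPM in unstarved, 0.333, 0.247 and 0.302 in Cys-starved and 0.816, 0.713 and 0.668 CPM in Thr-starved libraries. It was 1 of the 3 members whose Cys-starved libraries all lay below the unstarved ones, with Hist1h2be and Hist1h2bg, and none of the 3 was called with Cys.

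The H2B genes had the lowest median log2 fold change with Thr, 0.68, against 0.82 in H3, 1.33 in H4, 1.36 in H1 and 1.74 in H2A. Hist2h2be, of which 99.7% of windows occur in no other transcript, had 1.79, 1.22 and 1.52 CPM in unstarved, 1.32, 1.90 and 1.38 in Cys-starved and 2.90, 2.22 and 2.699 CPM in Thr-starved libraries (0.79 ± 0.17 with Thr, SE). Hist1h2bh had 1.12, 0.662 and 0.964 CPM in unstarved, 1.16, 0.742 and 1.04 in Cys-starved and 1.18, 1.01 and 1.02 CPM in Thr-starved libraries, so that all groups overlapped. Outside H2A, members were also grouped by their annotated 3′ end. The median log2 fold change with Thr was 0.88 for the 14 members with no stem-loop found in the annotated transcript. It was 1.04 for the 18 whose transcript runs more than 60 bases past a stem-loop. For the 12 that end within 60 bases of a stem-loop it was 0.68. The median was 1.00 for the 13 with a poly(A) signal and 0.85 for the 31 without. The stem-loop groups also differ in class makeup, and H2B genes are common among those that end within 60 bases. Within H2A, the medians were 1.72 for 5 genes with none found and 1.81 for 3 that run further. For the 5 that end within 60 bases the H2A median was 1.75. None of these groups was tested against another, and a stem-loop past the annotated end would have been missed.

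In unstarved cells, 43 of the 57 members had a mean under 2 CPM and 12 reached 10 CPM. Hist4h4, the least counted member, had 10, 4 and 2 counts in unstarved, 10, 0 and 14 in Cys-starved and 18, 18 and 14 counts in Thr-starved libraries, and its log2 fold change of 1.72 ± 0.69 with Thr (SE, adjusted p = 0.034) lost its call when unstarved replicate 2 or 3 or Thr-starved replicate 1 or 2 was left out (log2 fold changes of 1.37 to 1.58, adjusted p of 0.0824 to 0.118).

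Histone genes of the clusters often start back to back around a shared intergenic stretch. In 10 such pairs of an H2A and an H2B gene, the starts lay 175 to 301 bases apart. The stretches of 2 pairs are shown because they lie between the starts of both partners, on the plus strand of GRCm38 from RefSeq promoter sequences, with matches to CCAAT and to TATAAA and ATTTGCAT, on either strand, in capitals.
Hist1h2ap to Hist1h2br, chr13:21833508-21833742: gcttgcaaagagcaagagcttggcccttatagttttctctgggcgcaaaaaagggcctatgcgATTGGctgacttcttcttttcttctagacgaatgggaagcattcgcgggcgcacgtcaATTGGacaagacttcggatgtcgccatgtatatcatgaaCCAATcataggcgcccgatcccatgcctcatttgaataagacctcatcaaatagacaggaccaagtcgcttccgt
Hist1h2ac to Hist1h2bc, chr13:23683949-23684198: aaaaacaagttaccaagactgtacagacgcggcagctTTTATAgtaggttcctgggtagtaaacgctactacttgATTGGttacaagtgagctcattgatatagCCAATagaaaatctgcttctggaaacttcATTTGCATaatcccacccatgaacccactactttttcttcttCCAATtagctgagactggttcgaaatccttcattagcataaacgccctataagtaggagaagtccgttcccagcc
Of the 52 members with a RefSeq promoter, 44 held CCAAT (84.6%, against 37.9% of all promoters of the same length), 31 held TATAAA (59.6% against 14.2%) and 10 held ATTTGCAT (19.2% against 1.75%), on either strand. CCAAT was present in every H1, H2A, H2B and H3 promoter matched and in 3 of 11 of H4. ATTTGCAT was found in H2A and H2B promoters alone. Where both partners of a back-to-back pair had a promoter, the promoters overlapped, so their common sequence was counted for each partner. With Thr, the H2A gene had the larger log2 fold change in 10 of 10 pairs, by 0.74 to 1.37 (median 1.00). In the Hist1h2ap and Hist1h2br pair it was 1.80 against 0.85, and in the Hist1h2ac and Hist1h2bc pair 1.81 against 0.90. H2B genes of 8 pairs were called higher, against 31.1% of all tested genes called higher and 31.9% lower. Rows of different pairs share sequence, as Hist1h2bq and Hist1h2br do in 1968 windows, so the 10 pairs are not independent comparisons.

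**Figure D3:**
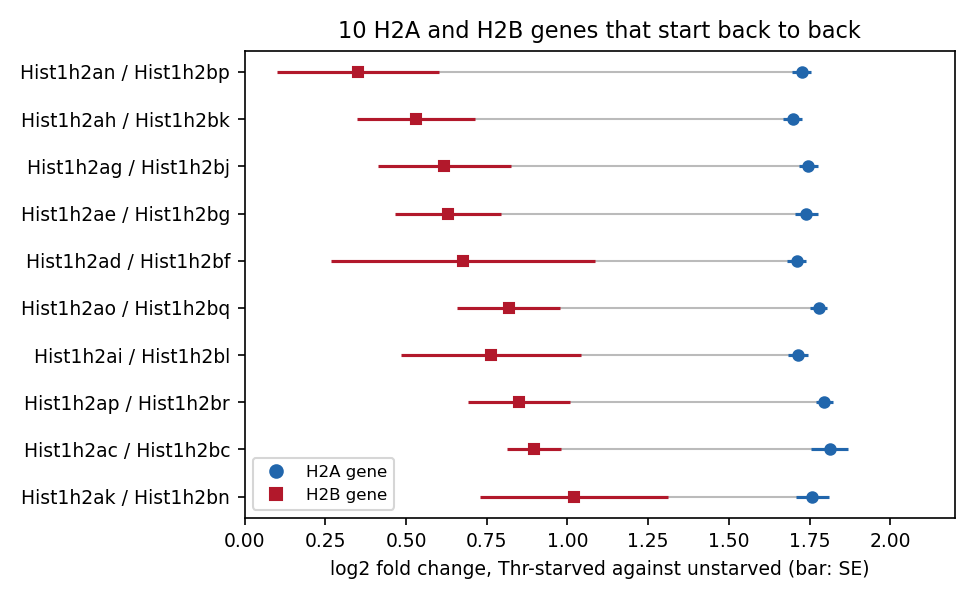
Log2 fold change with Thr starvation (x axis, with SE as bars) of the H2A gene (circles) and the H2B gene (squares) of 10 pairs that start back to back (rows). H2A genes lie between 1.70 and 1.81 and H2B genes between 0.35 and 1.02. Rows of different pairs can share reads, so the pairs are not independent.

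Within a library, the ratio of summed H2A to summed H2B counts does not depend on scaling. It was 32.1, 32.0 and 38.3 in unstarved, 40.1, 40.2 and 38.9 in Cys-starved and 67.8, 66.3 and 71.0 in Thr-starved libraries. All groups were separate (p = 0.1 in each comparison, two-sided exact permutation test over 3 against 3 libraries, which is the smallest p this design allows). Because H2A rows can share reads, the ratio measures counts, not molecules.

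Genes known to act on histone RNA or histones were taken from lists. Over all genes tested, 31.1% were called higher and 31.9% lower with Thr, and 17.5% higher and 18.8% lower with Cys, which is the background for the counts of each list. Of the 11 histone variants listed as replication-independent, 9 rose and 2 fell with Thr, at a median log2 fold change of 0.26. With Cys, 1 of them rose and 7 fell (median −0.15). H3f3b, which encodes the replacement histone H3.3, had 518, 522 and 513 CPM in unstarved and 1238, 1210 and 1254 CPM in Thr-starved libraries, a log2 difference of 1.25 ± 0.02 (adjusted p = 3.8e-23), and H1f0, a linker variant, rose by 0.71 ± 0.04. H2afz rose by 0.23 ± 0.02 and H3f3a by 0.18 ± 0.02, whereas H2afx, which has the stem-loop too, fell by 0.13 ± 0.03 on the log2 scale (SE). S phase genes rose in 16 of 20 cases with Thr and fell in 1 (median 0.44), while 2 rose and 9 fell with Cys (median −0.04). Among these were Chek1, a checkpoint kinase, at 0.86 ± 0.03, Pola1, a DNA polymerase subunit, at 0.63 ± 0.03 and Rrm2, a ribonucleotide reductase subunit, at 0.61 ± 0.02 (SE). Whether the members differ from these lists was not tested.

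Factors of the histone RNA 3′ end rose in 6 of 18 cases and fell in 9 with Thr (median −0.06). Slbp, which binds the stem-loop, had 131, 130 and 132 CPM in unstarved, 126, 122 and 123 in Cys-starved and 162, 157 and 163 CPM in Thr-starved libraries, and its log2 fold change was 0.29 ± 0.03 with Thr and −0.08 ± 0.03 with Cys (SE, both called). Of the U7 particle subunits, Lsm10 fell by 0.33 ± 0.07 with Thr and Lsm11 was at 0.09 ± 0.07 (SE, adjusted p = 0.255). Factors of histone RNA decay rose in 8 of 10 cases with Thr and fell in 1 (median 0.21). Regulators of histone transcription rose in 6 of 10 and fell in 2 (median 0.18), including Npat, the S phase activator of these genes, at 0.12 ± 0.03, and Casp8ap2 at 0.46 ± 0.03 (SE). Histone chaperones rose in 6 of 15 and fell in 7 (median −0.02), and cleavage and polyadenylation factors rose in 7 of 15 and fell in 7 (median −0.00). With Cys, 4 factors of the 3′ end rose and 10 fell (median −0.10), and 3 decay factors rose and 1 fell (median 0.05). Of the transcription regulators 1 rose and 3 fell with Cys (median −0.03), of the chaperones 4 rose and 7 fell (median −0.07), and of the cleavage and polyadenylation factors 3 rose and 6 fell (median −0.06).

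**Figure D4:**
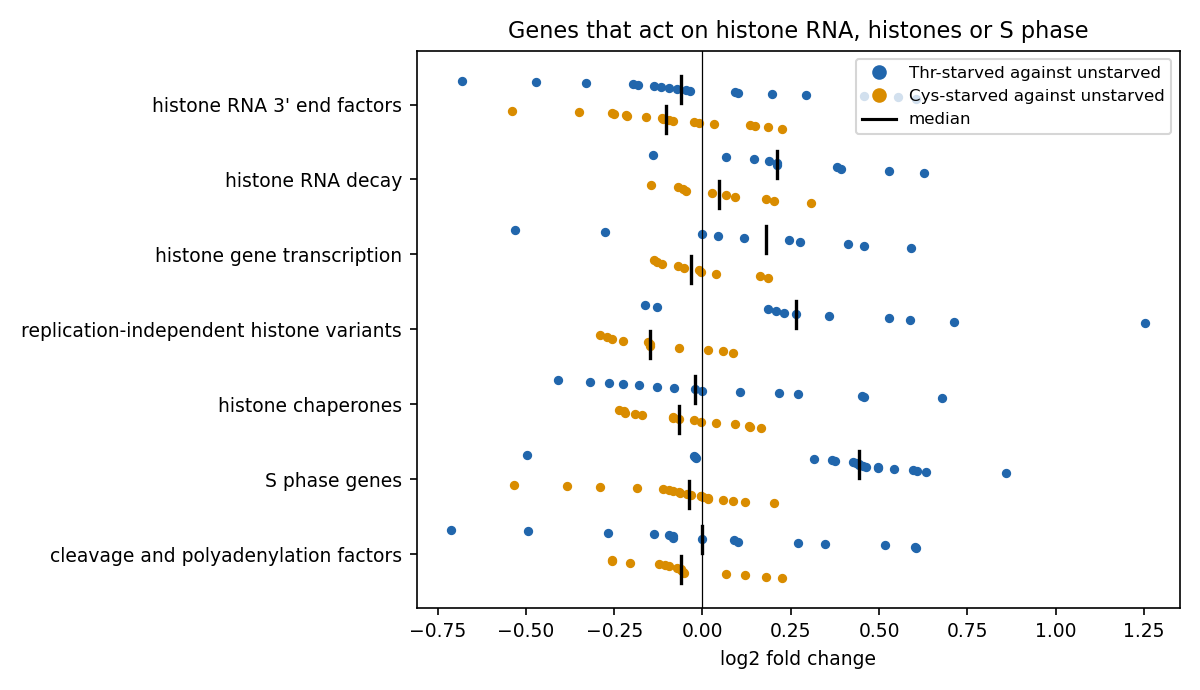
Log2 fold change (x axis) of the genes of 7 fixed lists (rows, 1 point a gene) after Thr starvation (blue) and Cys starvation (orange), with the median as a black line. H3f3b is the highest point at 1.25, and the S phase genes have a median of 0.44 with Thr and −0.04 with Cys.

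The total count was 48763102 to 74962733 per library. The 8 ES cell markers summed to 3907 to 3932 CPM in unstarved, 3728 to 3754 in Cys-starved and 4137 to 4217 CPM in Thr-starved libraries. Summed levels of markers of other cell types also differed with Thr starvation: 5 fibroblast markers were at 13.9 to 14.4 CPM in unstarved and 10.6 to 11.3 in Thr-starved libraries, 2 mesoderm markers at 5.38 to 7.01 and 2.03 to 2.29, and 2 trophoblast markers at 1.17 to 1.85 and 0.654 to 1.09. In the same groups, 2 neural markers were at 15.5 to 16.5 and 22.2 to 25.8 CPM and 4 endoderm markers at 3.17 to 3.41 and 4.63 to 5.43. In Cys-starved libraries the neural markers were at 20.97 to 21.7, the endoderm markers at 4.30 to 5.07, the fibroblast markers at 13.2 to 15.9, the mesoderm markers at 4.56 to 5.44 and the trophoblast markers at 1.56 to 1.71 CPM. The part of these markers in the histone results was not tested. Even counts made up 66.8% to 68.5% of the values from 1 to 20, and every count of Hist4h4 was even. The cause was not tested, and whether each count stands for 1 fragment is unknown, which limits the low counts. Halving all counts left 49 members called with Thr.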

How the data were processed

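The authors sequenced poly(A) RNA of 9 libraries (2 × 43 bp), mapped it to GRCm38 with STAR 2.7.4a and counted it per gene with HTSeq, and deposited the raw counts. The second deposited table holds a normalized signal, which the authors made by dividing each library's counts by its DESeq2 size factor. HTSeq's strand, overlap and multi-mapping settings are not given in the sources used here. Counts were tested with edgeR 4.0.16 (TMM, quasi-likelihood F test, R 4.3.3) on all 9 libraries and 20143 genes with at least 1 count, with Benjamini-Hochberg adjustment at 0.05 and no fold threshold; SE is the log2 fold change over the root of F. The members and lists were chosen with earlier results of these data known. Shared 43-base windows and stem-loops came from GENCODE M21 transcripts, promoters from RefSeq (GRCm38.p6). Members described with full values were the 5 with most counts, the leading member of each class, the 3 largest called changes per comparison among members of at least 1 CPM, and those at the 90-count limit; other members are named to account for them. List genes are named by size of change, beside a fixed set of histone factors. Alternatives, including DESeq2 1.42.0, are given in the closing section. On simulated data the share of false calls was above the nominal level in some draws, for a reason not established, so calls near the threshold are less certain than their adjusted p states. Cut-offs of 60 bases and 50% of windows were set on seeing the sequences.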

Additional observations from a re-analysis of the deposited data

Results flagged for a closer look

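Of 3 pseudogene rows outside the members, 2 showed signal above the unstarved libraries with Thr starvation. Hist1h2aj, an unprocessed H2A pseudogene with 44963 counts, had 46.1, 45.7 and 47.3 CPM in unstarved libraries and a log2 rise of 1.74 ± 0.03 with Thr (adjusted p = 1.89e-22). Hist3h2bb-ps, with 77 counts, rose by 1.54 ± 0.65 (SE, adjusted p = 0.0454). Hist1h2al, with 105 counts, was at 0.13 ± 0.46 (SE, adjusted p = 0.824). Of the windows of Hist1h2aj, 93.2% also occur in Hist1h2ai, and of those of Hist3h2bb-ps, 34.3% also occur in Hist3h2ba. Whether their reads belong to these coding genes was not tested.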

How the results depend on the processing

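The direction of the median held under every alternative run with Thr and in the direct comparison. The median with Cys, which is small, ranged from −0.0099 to 0.13 when 1 library was left out (12 to 13 members called), and was 0.23 for members with at least 900 counts, 0.023 for those with at least 50% of windows in no other transcript and −0.036 without H2A, where 0 members were called. The 900-count limit kept 23 members, with 23 called and medians of 1.69 with Thr and 1.43 between Thr and Cys. That limit includes the Thr-starved libraries, and 8 of the 23 would fall under it on the other 6 scaled to 9, so these values are no support. The 50% limit gave 20 called in each, against 2 called with Cys. Without H2A the medians were 0.87 and 0.98. Requiring a change of 1 or more on the log2 scale, in either direction, left 31 called with Thr and 0 with Cys. Leaving out 1 library gave 44 to 50 called and medians of 1.05 to 1.12 with Thr, and 48 to 50 called and medians of 1.04 to 1.19 between Thr and Cys. With the deposited size factors, the summed level was 691 in unstarved and 800.2 CPM in Cys-starved cells. Summed H3 counts with Cys passed the test with those size factors (log2 fold change −0.19) and in a fit without Cys-starved replicate 1, in a range of −0.24 to −0.082 over left-out libraries. With the replicate block, 49, 12 and 49 members were called with Thr, with Cys and between them, and the median with Cys was 0.04. Same-numbered libraries deviated with correlations of −0.11 to 0.06, so no shared deviation was seen. This cannot exclude that same-numbered samples were handled together. Over the named members, 746 values under the other settings kept their direction and their side of the threshold, 4 lost a call (Hist4h4 with Thr) and 2 gained 1 (Hist4h4 between Thr and Cys without Cys-starved replicate 3, at 1.92, and Hist3h2ba with Cys). The cleavage and polyadenylation list had 14 genes called with Cys under the deposited size factors, against 9. The cause of these shifts was not tested. The alternative with windows unique in the genome was not run, since no genome was used here. The comparison of class sums, the 50% limit by transcripts, the exclusion of H2A and the halved counts were chosen after seeing the data.

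Limits are those of poly(A) libraries of 3 samples a group, of rows that can share reads, and of the low counts of some members.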
